A study of Mus musculus with 12 samples.

Results

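The enzymes that build and sulfate glycosaminoglycans were compared by RNA-seq between cochleae with and without Jag1, the ligand that signals to Notch receptors on neighbouring cells. The enzyme genes were chosen by a rule on symbols that uses no measured value, though with earlier results of these data known. Of the 28686 gene symbols in the count table, 51 met the rule. They fall into 5 genes for the linker that ties a chain to its protein, 16 for chondroitin sulfate (6 for the chain and 10 for its modification), 21 for heparan sulfate (5 and 16) and 9 for keratan sulfate or other sulfated sugars. RNA came from the P6 cochlea, dissected for its sensory epithelium, from 6 Sox2CreER/+Jag1fl/fl mutants and 6 Sox2+/+ littermates. The labels give the strain as C57BL/6;129SV, whereas the study's methods place the CreER line on C57bl6/J and the floxed line on FVB/n. All pups received tamoxifen on P0 and P1, and the controls carried 1 or 2 floxed Jag1 alleles but no CreER. The mutants thus also carry a CreER allele at Sox2 that the controls do not. CreER is made in every supporting cell subtype, and cells that do not use the Sox2 locus keep Jag1.

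Glycosaminoglycans are long chains of repeated sugar pairs. Chondroitin and heparan sulfate are attached to a serine of a core protein through a short shared linker, whereas keratan sulfate is joined to its proteins in other ways and hyaluronan has no core protein. The sugar added after the shared linker decides the kind of chain: N-acetylgalactosamine starts chondroitin, and N-acetylglucosamine starts heparan. Polymerases then extend the chain, and epimerases and sulfotransferases edit it, which sets how it binds growth factors, morphogens and matrix proteins. In the inner ear these chains are abundant in the cartilage of the otic capsule and in the matrix around cells.

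Total counts per library lay between 28498549 and 36134983. Jag1 was measured at 102 ± 14.7 CPM (counts scaled to library size, SD, n = 6) in controls and 36.4 ± 6.56 CPM in mutants. Its log2 fold change was -1.48 ± 0.13 (SE), with an adjusted p of 0.000258 by edgeR, and the genotypes did not overlap. The genotypes also differed in markers of other cells: 12 of 14 neuron markers and 13 of 13 Schwann cell markers were higher in mutants at an unadjusted p under 0.05. Over all genes 6.52% were. The summed neuron markers ran from 287 to 502 CPM in controls and from 393 to 1585 CPM in mutants, and the summed Schwann cell markers from 432 to 1497 CPM and from 1224 to 6301 CPM. Mutant 4 had the most neuron marker signal, and mutants 1 and 2 had the most Schwann cell signal. Hair cell and supporting cell markers were detected in every library, at 485 to 622 and 3801 to 4892 summed CPM. Of 12 supporting cell markers, 9 had values below 0. At an unadjusted edgeR p under 0.05, 3 of them were lower in mutants and 0 higher, beside 4.04% of all genes that were lower. These were Sox2 at a log2 fold change of -0.45 ± 0.13 (SE), Tecta at -0.45 ± 0.17 and S100a1 at -0.32 ± 0.11. Of 12 hair cell markers, 0 had such a p. Cartilage and otic capsule markers were far more abundant, at 37190 to 50200 summed CPM, and mesenchyme markers reached 13450 to 17450. Most of the cartilage sum came from collagen genes, with Col2a1 at a mean of 21080 CPM in controls. The rest of that list ran from 0.141 CPM for Matn3, 2.59 for Comp and 4.91 for Hapln1 to 1156 CPM for Lect1. The mesenchyme markers show that RNA of cells outside the epithelium was present in all libraries. Which cells the collagen RNA came from was not tested. Of the markers in these lists, the cartilage list holds Acan and the mesenchyme list holds Dcn and Lum, which also carry glycosaminoglycan chains.

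In this tissue the core of every pathway was expressed, and most families were carried by 1 or 2 of their members. Levels of different genes were compared per length, as TPM (transcript level scaled to the same total in each library) computed here from the counts and the total exon length of each gene. In controls, the chondroitin genes summed to 623, 669 and 705 TPM (lowest, median and highest mouse), and the heparan genes to 724, 815 and 847 TPM. The ratio of the summed chondroitin to the summed heparan level ran from 0.792 to 0.905 in controls, with a median of 0.84, and from 0.758 to 0.845 in mutants, with a median of 0.826. The ranges overlap. With coding length in place of exon length the median ratio was 0.703 in controls and 0.67 in mutants.

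B3gat3, which adds the glucuronic acid that completes the linker, was the highest linker gene per length at 73.4 ± 3.58 TPM (SD, n = 6 controls). Of the xylosyltransferases that start the linker, Xylt2 made up 94.3% to 97.4% of the pair's level in controls, and Xylt1 the small remainder.

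Chpf, the cofactor of the chondroitin polymerase, was the highest of all 51 members at 130 ± 16 TPM in controls. With its partner Chsy1 at 68.5 ± 1.68 TPM it held most of the polymerising level, a median share of 56.3% for Chpf and 29.1% for Chsy1, whereas Chsy3 held 1.47%. Among the enzymes that place the N-acetylgalactosamine which opens a chondroitin chain, Csgalnact2 held 86.1% and Csgalnact1 13.9%. Chst11, which sulfates chondroitin at position 4, led the modification enzymes at 99.3 ± 12.7 TPM, and held a median 52.3% of the 4-O-sulfotransferase level in controls. Chst14, which sulfates dermatan, the epimerised form of chondroitin, held 34.4%. By exon length, the 6-O-sulfotransferases Chst3 and Chst7 together stood at 16.1% to 18% of the summed 4-O-sulfotransferase level in controls and at 15% to 20.3% in mutants. By coding length Chst11 stood higher in controls, at 172 TPM, and Chst7 lower, at 12.8 instead of 25.5 TPM. The ratio therefore depends on the length used.

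Extl3, which starts the heparan chain, was the highest heparan chain gene at 124 ± 11 TPM, ahead of Ext2 at 85.4 ± 5.22 and Ext1 at 49.9 ± 1.94 TPM, the pair that polymerises it. Ndst1, whose enzyme replaces acetyl by sulfate on glucosamine and so opens the chain to all later editing, led heparan modification at 108 ± 18.7 TPM and held a median 72.6% of its family. Ndst2 held 25.5%, while Ndst3 and Ndst4 held 1.78% and 0.0633%. Hs6st1 held 77.1% of the 6-O-sulfotransferase level. Among the 3-O-sulfotransferases the level was shared, with 47.2% for Hs3st6 and 43.4% for Hs3st1. Chst1, which sulfates the galactose of keratan sulfate, was the highest of the last class at 66.5 ± 23.9 TPM, with a wide spread between mice.

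**Figure D1:**
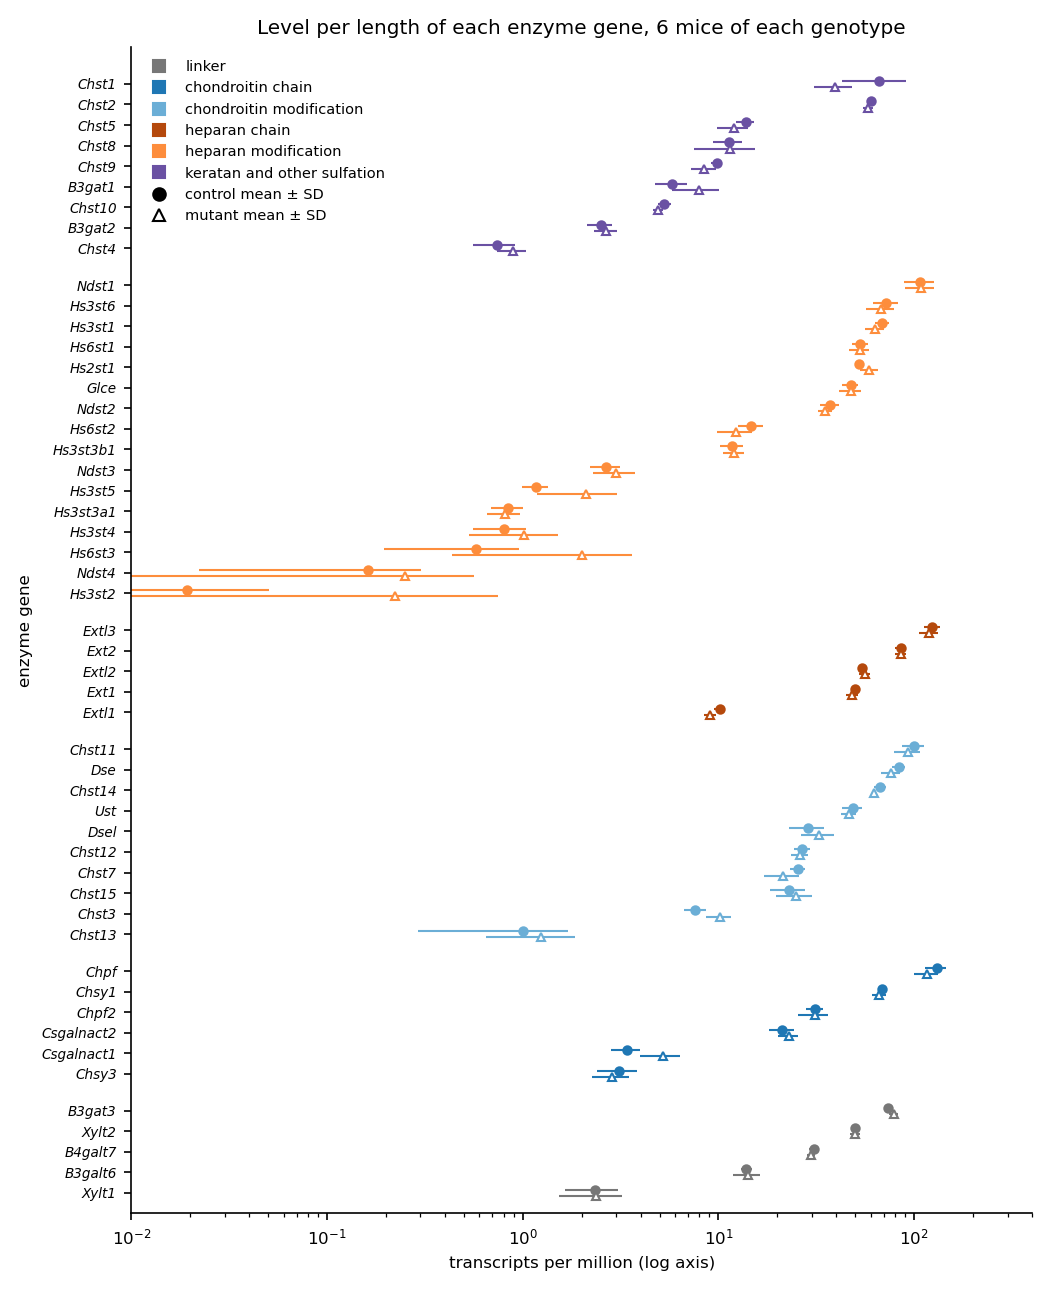
Level per length of each of the 51 enzyme genes by class (vertical axis) in TPM on a log axis, as the mean ± SD of 6 controls (filled circles) and 6 mutants (open triangles). SD bars that reach below the left edge belong to Ndst4 and Hs3st2. Chpf at 130 TPM and Extl3 at 124 TPM are the highest, and the control and mutant symbols lie close together for most genes.

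The order of levels depended partly on the length used. With coding length Chst11 was highest at 172 TPM and Hs2st1, at 121 TPM, passed Ndst1, at 106 TPM, while Chpf stood at 70.7 TPM. Shares within a family moved as well. The control median went from 52.3% to 75.5% for Chst11, from 34.4% to 17.5% for Chst14, from 47.2% to 30% for Hs3st6 and from 22.5% to 46.5% for the share of Chst3 in its pair with Chst7. Chst2, which sulfates N-acetylglucosamine, passed Chst1 in its class, at 92 against 47.7 TPM. In the exon-length order nearly every gene overlapped the next below it across control mice. The exceptions were the steps from Csgalnact2 to Hs6st2 and from Chst10 to Csgalnact1, and the lowest gene was Hs3st2. Hs3st2 was the 1 member left out of the test for low counts. It had 0 to 2 reads in 11 libraries and 35 in mutant 4, the mouse with the most neuron marker signal.

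Between genotypes, no enzyme gene passed the edgeR test over all genes. At an adjusted p under 0.05 edgeR called 0 of 50 members, against 0.19% of the 18459 genes tested, and DESeq2 called 4 of 50, or 8%, against 3.37%. The 4 were Csgalnact1, Chst3 and Hs6st3, higher in mutants, and Chst1, lower. At an unadjusted p under 0.05 edgeR gave 11 members, or 22%, against 10.6% of all genes. Of these, 6 members were higher in mutants (12%, against 6.52%) and 5 lower (10%, against 4.04%). The mice of the genotypes overlapped in all 50 members, while 0.997% of all genes had no overlap. In bulk tissue, fewer cells of a type and less RNA per cell cannot be told apart.

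The chondroitin and heparan enzymes gave similar counts and medians. An unadjusted p under 0.05 was given to 4 of 16 chondroitin genes, 2 in each direction, and to 5 of 20 tested heparan genes, 3 higher and 2 lower. Over all genes tested the share was 10.6%, with 6.52% higher and 4.04% lower. The median log2 fold change was -0.08 for chondroitin genes and -0.03 for heparan genes, beside 0.003 for all genes tested. Values below 0 were given to 10 of the 16 and to 12 of the 20, beside 49.1% of all genes tested. The linker genes lay between -0.08 and 0.07, with 0 of 5 at an unadjusted p under 0.05. The summed chondroitin level ran from 585 to 701 TPM in mutants and the summed heparan level from 696 to 829.4 TPM, both overlapping the controls. A difference between the classes was not tested, since the genes of a class are not replicates.

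**Figure D2:**
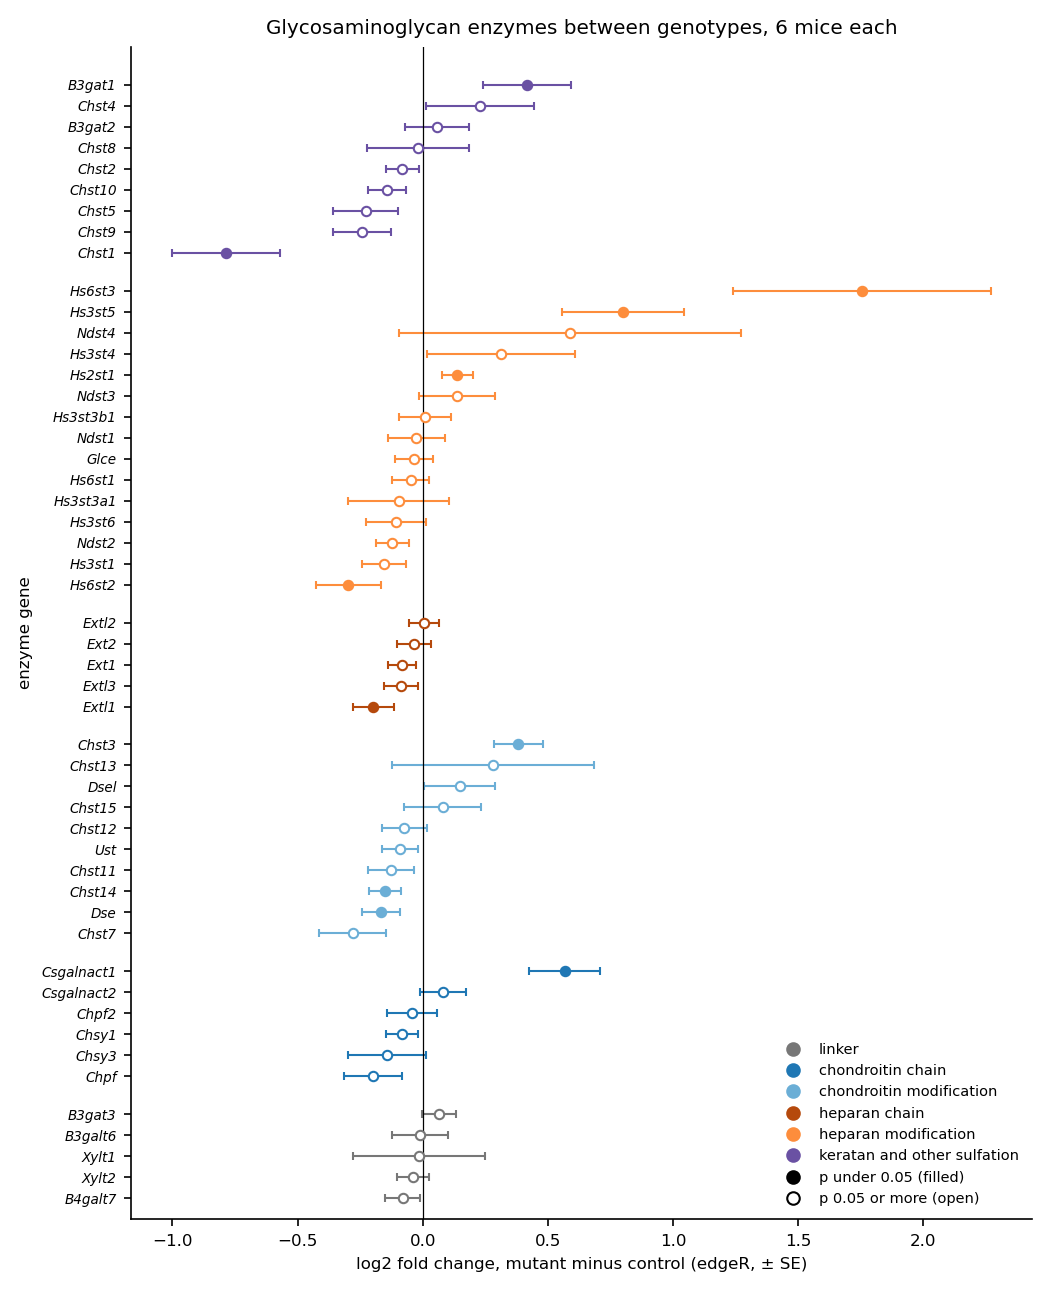
Log2 fold change of each of the 50 tested enzyme genes, mutant minus control, with its SE from edgeR (horizontal axis), by class (vertical axis), 6 mice of each genotype. Filled symbols mark the 11 genes with an unadjusted p under 0.05, which lie on both sides of 0 in the chondroitin and in the heparan genes.

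Csgalnact1, which places the N-acetylgalactosamine that commits a linker to chondroitin, had 3.86, 4.56 and 5.87 CPM in controls (lowest, median and highest mouse) and 5.5, 6.39 and 9 CPM in mutants. All 6 mutants lay above the control median, mutants 4 and 2 were the highest, and only control 6 reached into the mutant range. The log2 fold change was 0.57 ± 0.14 (SE), with p = 0.0012 and adjusted p = 0.0955 by edgeR, 0.00911 by DESeq2, and an exact two-sided permutation p of 0.00433. Its share of the pair with Csgalnact2 ran from 12.3% to 15.8% in controls and from 14.9% to 22.4% in mutants. The partner Csgalnact2 was at 0.08 ± 0.09, and the other chain genes lay between -0.20 for Chpf and -0.04 for Chpf2.

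Chst3, the chondroitin 6-O-sulfotransferase, had 11.6, 13.3 and 15.4 CPM in controls and 13.6, 17.5 and 20.8 CPM in mutants. Mutant 5 was the only mutant within the control range. The log2 fold change was 0.38 ± 0.10, with adjusted p = 0.0991 by edgeR and 0.0129 by DESeq2, and an exact permutation p of 0.00649. Chst7, which sulfates the same position, was at -0.28 ± 0.13 with an unadjusted edgeR p of 0.0553. The share of Chst3 in the pair was 20.6% to 26% in controls and 25.1% to 47% in mutants by exon length. By coding length the shares are larger, as given above.

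Chst14, the dermatan 4-O-sulfotransferase, had 34.2, 37.4 and 42.8 CPM in controls and 32.9, 34.4 and 35.2 CPM in mutants, and all 6 mutants lay below the control median. Its log2 fold change was -0.15 ± 0.06 (edgeR adjusted p = 0.403, unadjusted 0.034). Dse, the epimerase that turns glucuronic into iduronic acid, had 100.2, 113 and 124 CPM in controls and 86.5, 101 and 112 CPM in mutants, with mutants 1 and 2 the lowest. Its log2 fold change was -0.17 ± 0.08 (edgeR adjusted p = 0.473, unadjusted 0.0499), while Dsel, its paralogue, was at 0.15 ± 0.14. The other 7 chondroitin modification genes, Dsel and Chst7 among them, gave no unadjusted p under 0.05 and lay between -0.28 and 0.28, the latter for Chst13.

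Of the heparan chain genes, Extl1, an N-acetylglucosaminyltransferase of low level, had 10.2, 12.2 and 12.9 CPM in controls and 9.44, 10.4 and 11.9 CPM in mutants. Control 6 was the lowest control and mutant 1 the highest mutant, and each lay within the range of the other genotype. The log2 fold change was -0.20 ± 0.08 (edgeR adjusted p = 0.39, unadjusted 0.0308). The polymerases Ext1 and Ext2 and the genes Extl2 and Extl3 lay between -0.09 and 0.01.

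Of the heparan modification genes, Hs6st3 had the largest fitted difference of all members. This 6-O-sulfotransferase had 0.116, 0.188 and 0.506 CPM in controls and 0.368, 0.562 and 2.05 CPM in mutants, which is 4 to 17 reads and 12 to 70 reads. Mutants 4 and 2 were far above the others, and the 2 highest controls overlapped the mutants. The log2 fold change was 1.76 ± 0.52, with adjusted p = 0.146 by edgeR and 0.0357 by DESeq2, and an exact permutation p of 0.0195. The abundant Hs6st2 went the other way, with 22.7, 31.4 and 37.2 CPM in controls and 19.7, 24.6 and 31.1 CPM in mutants, for a log2 difference of -0.30 ± 0.13 (edgeR adjusted p = 0.418, unadjusted 0.0367). Hs6st1, which dominates the family, was at -0.05 ± 0.07.

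Hs3st5, a 3-O-sulfotransferase, had 1.14, 1.38 and 1.64 CPM in controls and 1.42, 2.05 and 3.83 CPM in mutants. As for Hs6st3 and Csgalnact1, mutants 4 and 2 were the highest, and mutants 3 and 5 lay within the control range. The log2 fold change was 0.80 ± 0.24, with adjusted p = 0.157 by edgeR and 0.0634 by DESeq2, and an exact permutation p of 0.0173. Hs2st1, the only 2-O-sulfotransferase of heparan, had 107, 117 and 123 CPM in controls and 113, 129 and 142 CPM in mutants, for a log2 difference of 0.14 ± 0.06 (edgeR adjusted p = 0.448, unadjusted 0.0439). Mutants 1 and 3 lay among the controls. The other 11 tested heparan modification genes gave no unadjusted p under 0.05, and the Ndst family ran from -0.12 ± 0.07 for Ndst2 to 0.59 ± 0.68 for Ndst4.

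Chst1, the keratan sulfate galactose 6-O-sulfotransferase, was the member with the largest lower value. It had 29.3, 40.9 and 69.7 CPM in controls and 22.2, 26.7 and 39.4 CPM in mutants. Controls 3 and 4 stood apart at the top, and mutant 5 was the highest mutant and overlapped the lower controls. The log2 fold change was -0.78 ± 0.21, with adjusted p = 0.129 by edgeR and 0.00809 by DESeq2, and an exact permutation p of 0.00649. Chst5 and Chst2, which sulfate N-acetylglucosamine, were at -0.23 ± 0.13 and -0.08 ± 0.07, and the 7 members of this class with no unadjusted p under 0.05 lay between -0.24 for Chst9 and 0.23 for Chst4. B3gat1, which builds the HNK-1 carbohydrate of neural adhesion molecules rather than a glycosaminoglycan, had 6.02, 7.95 and 9.82 CPM in controls and 6.97, 9.92 and 14.6 CPM in mutants. Mutants 1 and 2, with the most Schwann cell signal, were the highest. Its log2 fold change was 0.42 ± 0.18 (edgeR adjusted p = 0.392, unadjusted 0.0312), while the HNK-1 sulfotransferase Chst10 was at -0.14 ± 0.08.

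**Figure D3:**
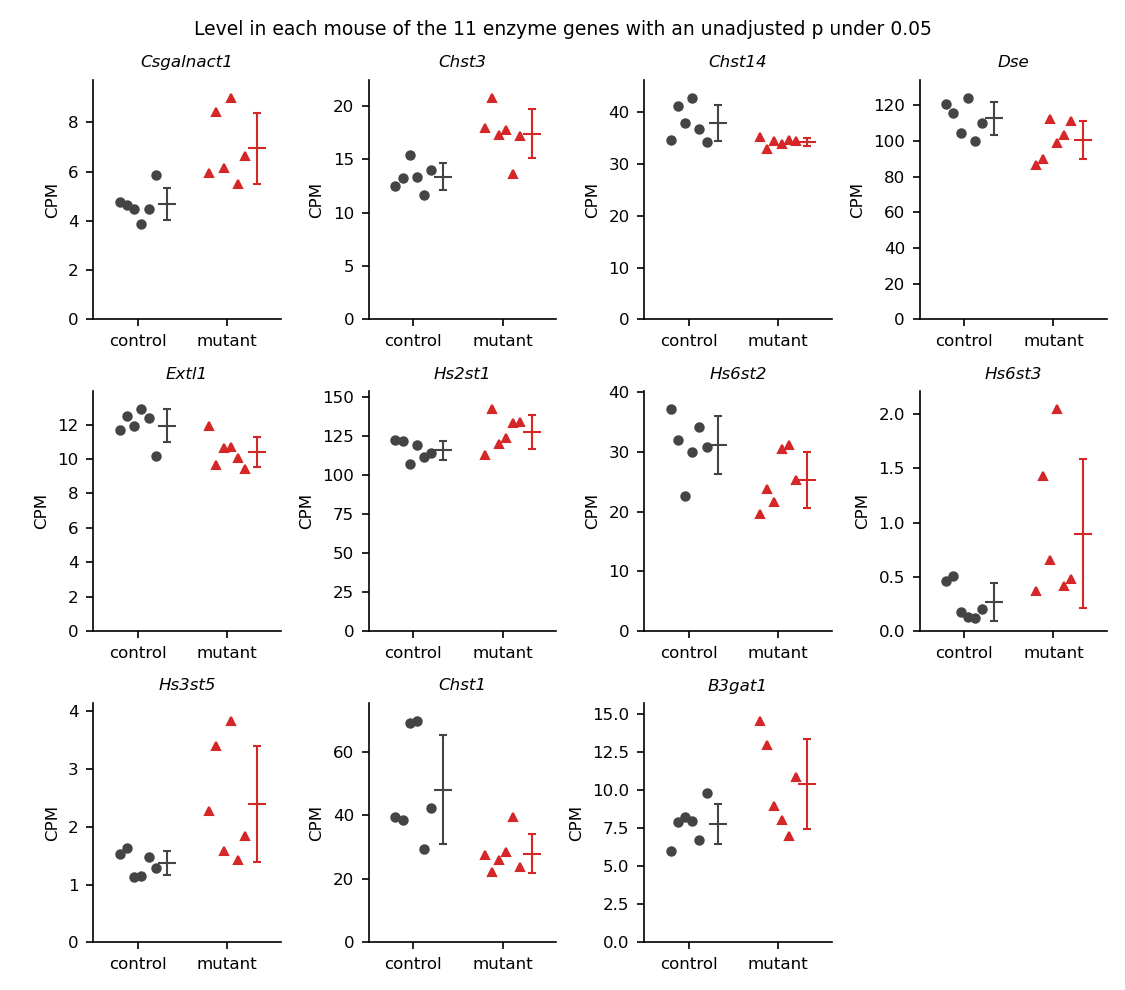
CPM (vertical axes, from 0) of the 11 enzyme genes with an unadjusted p under 0.05 in each of 6 controls (circles) and 6 mutants (triangles), with the mean ± SD beside them. The groups overlap in every panel, and for Csgalnact1, Hs6st3 and Hs3st5 the same 2 mutants, 4 and 2, are the highest.

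For some of these genes the mice at the extremes also stood out in nerve marker signal, and for others they did not. Mutants 4, 1 and 2 had summed neuron markers of 1585, 984 and 927 CPM, and the next mutant had 669 CPM. Controls 3 and 4, where Chst1 was highest, had the lowest summed neuron markers of all libraries at 287 and 342 CPM. Control 5, however, had the next lowest sum, at 354.5 CPM, and the lowest Chst1 of the controls, at 29.3 CPM. Among the mutants, mutant 5, where Chst1 was highest, had the lowest neuron sum at 393 CPM. Mutant 1, however, had the lowest Hs6st3 of the mutants, at 0.368 CPM, and the second lowest Csgalnact1, at 5.95 CPM, and mutant 4 had the lowest Schwann cell sum of the mutants, at 1224 CPM. When the mean log2 CPM of the neuron and of the Schwann cell markers were added to the model as covariates, 10 of the 11 values moved closer to 0, and 0 of the 11 kept an unadjusted edgeR p under 0.05. Over all genes, 514 had an unadjusted p under 0.05 in that fit, instead of 1949, and 1 instead of 35 was called. Jag1 itself no longer passed the adjusted threshold there. The 11 genes were chosen by their p in the fit without covariates, and the errors of all 11 were wider with them. Their loss at this threshold therefore does not test what part the markers have.

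The size of the shift differed between genes. Hs3st5 went from 0.80 to 0.01 ± 0.27, B3gat1 from 0.42 to 0.04 ± 0.28 and Chst1 from -0.78 to -0.10 ± 0.25. Chst14 went from -0.15 to -0.05 ± 0.11 and Dse from -0.17 to -0.02 ± 0.12. Csgalnact1 went to 0.25 ± 0.20, Chst3 to 0.23 ± 0.16 and Hs6st3 to 0.46 ± 0.58. By contrast, Hs2st1 at 0.13 ± 0.11, Extl1 at -0.20 ± 0.14 and Hs6st2 at -0.26 ± 0.20 stayed near their values without covariates, with wider errors. The covariates themselves differ by genotype, so their part and that of the genotype cannot be told apart in these 12 mice.

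**Figure D4:**
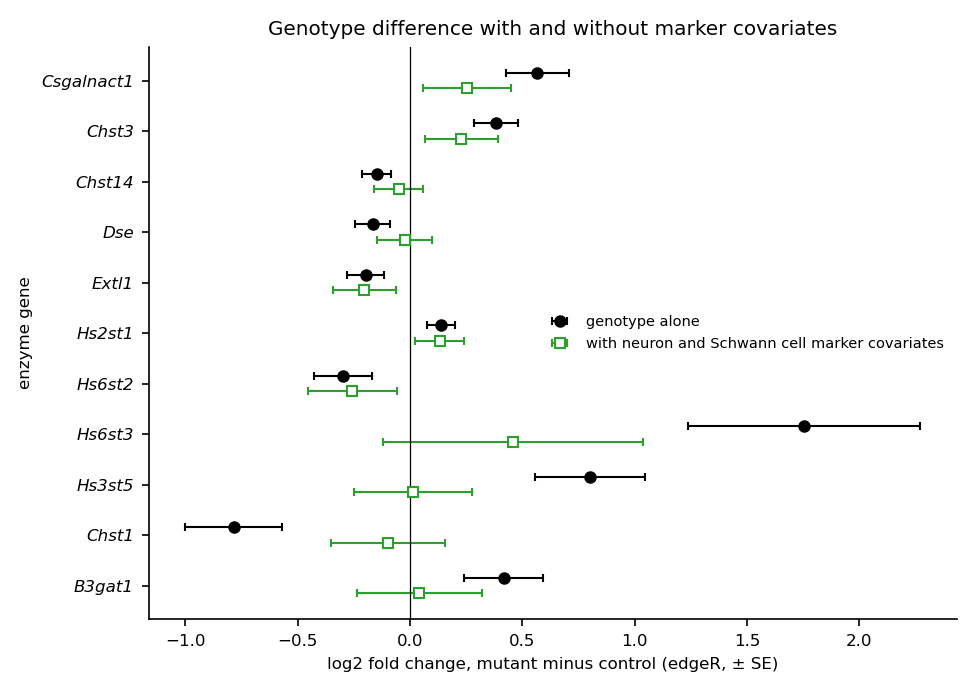
Log2 fold change, mutant minus control, with its SE (horizontal axis) of the 11 genes with an unadjusted p under 0.05, from edgeR with genotype alone (filled circles) and with the neuron and Schwann cell marker levels as covariates (open squares). Hs3st5, B3gat1 and Chst1 come to lie near 0, whereas Hs2st1, Extl1 and Hs6st2 hardly move.

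Jag1 acts through Notch receptors, whose released intracellular part works on DNA through the factor RBPJ. The core letters of the RBPJ motif, TGGGAA on either strand, were searched in promoters of 250 bases before to 50 after the start site, from RefSeq on GRCm38.p6. Of the 51 members, 41 have a promoter in that table and 4, or 9.76%, hold the letters, against 28.3% of the 27025 genes in it. Of the 11 genes with an unadjusted p under 0.05, 10 have a promoter there and 0 hold the letters, which says only that they are not in this window. The 4 members that hold them are Extl2, Ndst3, Chst13 and Chst5, none of which had an unadjusted edgeR p under 0.05. A match is a description and not a site of binding. The sequences are given because they are the only matches before the start site among the members (Chst13 has a further match after it), each in 30 bases, 5′ to 3′ on the strand of the gene, with the motif, or TTCCCA where it lies on the opposite strand, in capitals.
Extl2, chr3:116008263-116008292, plus strand: aaccgagcttctTGGGAAagcctttttgcc
Ndst3, chr3:123672506-123672535, minus strand: cactcgttttgaTGGGAAagacatcttatg
Chst13, chr6:90325400-90325429, minus strand: ctccactaccaaTTCCCAtcagtgtaaagt
Chst5, chr8:111910271-111910300, minus strand: cacggtcacgccTGGGAAggatagaggagc

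Most genes for the proteins that carry the chains, and for the enzymes that break them down, had lower values in mutants. Of 64 other genes of the pathway, 63 were tested, and Hpse2 had too few reads. By edgeR 0 were called at an adjusted p under 0.05. An unadjusted p under 0.05 was given to 11, all lower in mutants, against 4.04% of all genes that were lower. A value below 0 was given to 47 of the 63, beside 49.1% of all genes tested. This lean was not particular to the pathway. Values below 0 were also given to 9 of 10 cartilage, 9 of 10 mesenchyme, 7 of 8 bone and 5 of 5 endothelium markers. The counts were 7 of 12 for hair cell and 3 of 5 for dividing cell markers. For neuron and Schwann cell markers they were 1 of 14 and 0 of 13. With the neuron and Schwann cell covariates 2 of the 63 kept or gained an unadjusted p under 0.05, both lower in mutants. DESeq2 called 3 of the 63, namely Gpc4, Sdc1 and Fmod, beside 3.37% of all genes in either direction. The mice of the genotypes did not overlap in Gpc4, Sdc1 and Sgsh, beside 0.997% of all genes with no overlap.

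Gpc4, a glypican that carries heparan sulfate, had 40, 41.4 and 44.5 CPM in controls and 27.9, 33.7 and 37.6 CPM in mutants, for a log2 difference of -0.32 ± 0.07 (adjusted p = 0.0753 by edgeR, 0.000803 by DESeq2). Sdc1, a syndecan, had 24.7, 25.6 and 26.5 CPM in controls and 21.9, 22.7 and 24 CPM in mutants, for a log2 difference of -0.17 ± 0.05 (adjusted p = 0.154 by edgeR, 0.0223 by DESeq2). Every mutant lay below every control in both. The other 13 heparan sulfate core proteins gave no unadjusted p under 0.05. Of all 15, 11 had values below 0 and 4 above.

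The chondroitin carriers with an unadjusted p under 0.05 were the neural proteoglycans Bcan and Cspg5 and the small leucine-rich proteoglycans Bgn and Dcn, 4 of 10. All 4 were lower in mutants, beside 4.04% of all genes that were lower. Of the 10 carriers, 6 had values below 0 and 4 above. Bgn had 380, 456 and 519 CPM in controls and 378, 394 and 412 CPM in mutants, for a log2 difference of -0.20 ± 0.07 (edgeR adjusted p = 0.233). Cspg5 was at -0.43 ± 0.15 (edgeR adjusted p = 0.276) and Bcan at -0.47 ± 0.18 (edgeR adjusted p = 0.318). Of 6 keratan sulfate carriers, all had values below 0. Fmod had 72.6, 95.5 and 118 CPM in controls and 60, 72.5 and 79.8 CPM in mutants, for a log2 difference of -0.42 ± 0.10 (adjusted p = 0.0937 by edgeR, 0.0085 by DESeq2), and Prelp was at -0.21 ± 0.09 (edgeR adjusted p = 0.417).

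Among the genes for editing outside the cell and for breakdown in lysosomes, 15 of 16 had values below 0, beside 49.1% of all genes tested. Sgsh, which removes sulfate from the glucosamine of heparan, had 31.6, 33 and 34.4 CPM in controls and 27.8, 29.7 and 30.8 CPM in mutants, for a log2 difference of -0.16 ± 0.05 (edgeR adjusted p = 0.224), and all mutants lay below all controls. Hexa, a hexosaminidase subunit, was at -0.25 ± 0.09 (edgeR adjusted p = 0.278) and Naglu, which removes N-acetylglucosamine from heparan, at -0.20 ± 0.08 (edgeR adjusted p = 0.341). The macrophage markers, from cells rich in lysosomes, were also lower, with 5 of 8 at an unadjusted p under 0.05, beside 4.04% of all genes that were lower. Their sums were 368 to 454 CPM in controls and 307 to 379 CPM in mutants. Their part in the lysosomal values was not tested. The 11 genes of precursor supply, which make and carry the sugar nucleotides and the sulfate donor, lay between -0.16 and 0.03 with 0 at an unadjusted p under 0.05, and the 3 hyaluronan synthases lay between 0.17 and 0.27 with none.

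**Figure D5:**
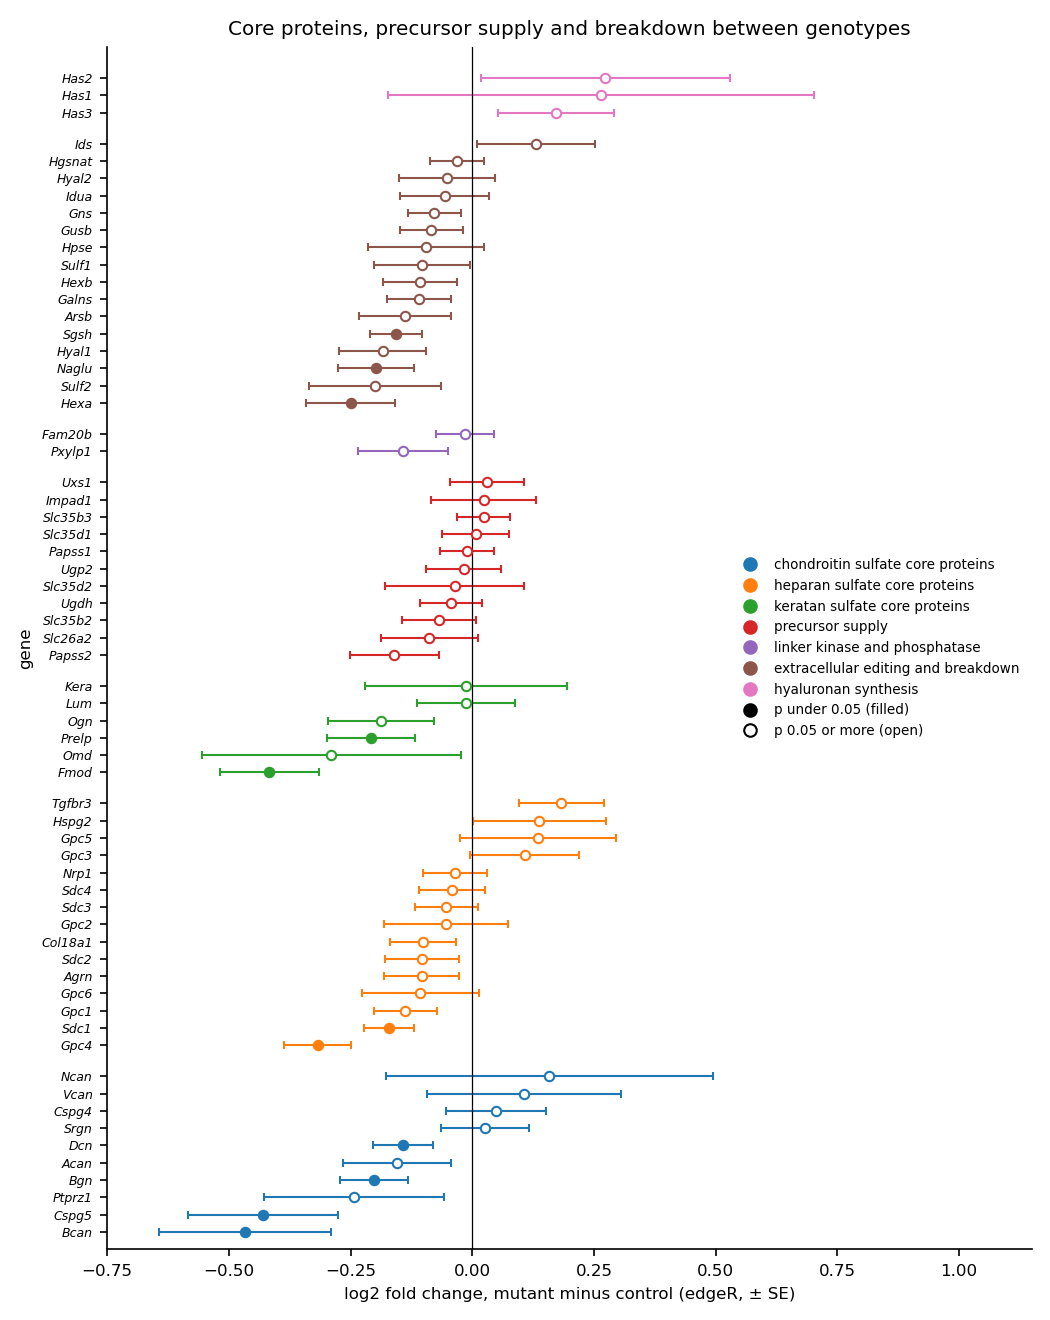
Log2 fold change, mutant minus control, with its SE from edgeR (horizontal axis) of 63 other genes of the pathway, grouped by role (vertical axis), 6 mice of each genotype. The 11 filled symbols, with an unadjusted p under 0.05, all lie below 0.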

How the data were processed

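RNA-seq libraries of 6 mutants and 6 controls were analysed. The authors deposited read counts for each gene symbol in each mouse, as whole numbers without normalization. The submitters' processing notes name Trimmomatic 0.32, STAR 2.4.2a, HTSeq 0.9.1, DESeq2 1.10.1 and the build GRCm38.p4. The annotation release and the strand setting are not given in the sources used here, so reads of overlapping genes on opposite strands may be mixed. A table of the authors' own comparison (mean levels, fold changes, errors, statistics and p-values) was not used.

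Genotypes were compared, mutant minus control, with edgeR 4.0.16 (quasi-likelihood test, TMM, robust, R 4.3.3) on genes whose counts averaged 5 or more, with Benjamini-Hochberg adjustment over all 18459 genes tested. CPM use TMM factors. Single genes were also compared by exact permutation of log2(CPM + 0.1). TPM were computed from exon lengths of GENCODE M21, found for 94.7% of symbols and all 51 members. Marker scores are mean log2 CPM with a prior count of 2. The code was tested on simulated data. Alternatives were DESeq2 1.42.0, limma-voom (limma 3.58.1), other normalizations and filters, marker covariates, a replicate block and leaving out each library. Replicate numbers come from the labels, which do not say that equal numbers share a litter.

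The members, the other lists and the tests were chosen with earlier results of these data known. Named were members with an adjusted p under 0.05 by edgeR or DESeq2 or an unadjusted edgeR p under 0.05, the member highest per length in each class, and members left out for low counts. In each list of other pathway genes up to 3 per direction with an unadjusted p under 0.05 were named, by smallest p. The partners and family members given beside them, and Dcn, were added for comparison after their values were seen. Libraries of 1 genotype differed by far more than counting error, so none was counted as a duplicate.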

Additional observations from a re-analysis of the deposited data

Results flagged for a closer look

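In 10 of 102 groups (51 members, 6 mice of each genotype), or 9.8%, the highest or lowest mouse lay far from the others by Dixon's test at the 95% level. Chance gives this in about 5% of independent groups of normally distributed values. The groups here share the same mice and some hold few reads, so the 2 rates do not test for an excess. Mutant 1 had 2.21 CPM of Xylt1, beside 5.88 to 8.01 in the other mutants, 62.2 CPM of B3gat3, beside 49.9 to 54.1, and 132 CPM of Chst2, beside 106 to 113. Xylt1 starts the linker, so that this mouse is low for one linker gene and high for another. Mutant 4 had 2.69 CPM of Ndst4, beside 0.245 to 0.622, 1.02 CPM of Hs3st2, beside 0 to 0.0273, and 0.526 CPM of Hs3st3a1, beside 0.848 to 1.04. These 3 heparan modification genes are of low level, with 92, 35 and 18 reads in that library, which also had the most neuron marker signal. The part of the marker signal in these values was not tested. Mutant 5 had 39.3 CPM of Chst1, beside 22.2 to 28.6, and mutant 2 had 3.06 CPM of Chst9, beside 4.32 to 4.94. In controls, control 6 had 1.02 CPM of Chst13, beside 0.178 to 0.447, and control 3 had 0.241 CPM of Chst4, beside 0.436 to 0.536.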

How the results depend on the processing

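Limma-voom, upper-quartile or RLE factors, testing all genes or those averaging 20 counts or more, estimation that was not robust, the replicate block and each marker covariate left 0 members called. DESeq2 called 4 members and 3 other genes of the pathway. Leaving out 1 library gave 0 to 3 called members, the 3 without mutant 5 (Csgalnact1, Chst3 and Chst1), and 0 to 1 other genes of the pathway, the 1 without control 1 or without mutant 5. The count of members with an unadjusted p under 0.05, 11 in the main fit, became 1 with the neuron and Schwann cell covariates. That gene, Chst5, was not among the 11. The count was 7 with the mesenchyme covariate, and 5 to 12 when 1 library was left out, with 5 without mutant 2 and 7 without control 5 or mutant 6. These counts and those that follow take in any gene that passed, not only the same genes. The 4 chondroitin genes became 2 with the replicate block, 0 with the neuron and Schwann cell covariates, 2 with the cartilage and 2 with the mesenchyme covariate, and 2 to 4 when 1 library was left out (2 without control 2, control 4 or mutant 2). The 5 heparan genes became 0, 3 and 3 with the same 3 covariate fits, and 2 to 5 when 1 library was left out (2 without control 5, mutant 2 or mutant 6, and 3 without control 6 or mutant 5). Jag1 was at -1.42 with the neuron and Schwann cell covariates, no longer past the threshold. Over all genes, 35 were called, with 619 by DESeq2, 19 by limma-voom, 57 without a filter, 131 with the block, 53 with the cartilage, 20 with the mesenchyme and 1 with the neuron and Schwann cell covariates, and 14 to 357 when 1 library was left out, so that calls near the threshold rest on the choice of method. The cause of these changes was not tested.

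Of the 11 genes with an unadjusted p under 0.05, 0 changed direction under any alternative run. Of the other members tested, 12 changed sign with the neuron and Schwann cell covariates, among them Ndst4 (0.59 to -0.89), Hs3st1 (-0.15 to 0.10), Dsel (0.15 to -0.11), Csgalnact2 (0.08 to -0.04) and Chst7 (-0.28 to 0.01), 7 with the cartilage covariate and 3 with the mesenchyme covariate, and 1 to 4 when 1 library was left out. In the check of pairing, the correlation of same-numbered libraries ran from -0.19 to 0.27. Differently numbered libraries were not compared, so this check cannot show whether equal numbers pair the mice. With the replicate block 8 members had an unadjusted p under 0.05. Genes with few reads, such as Hs6st3 and Ndst4, are measured with the largest error. Their reads also varied between mice, from 12 to 70 in mutants for Hs6st3 and from 8 to 92 for Ndst4. A difference as small as their SE, or somewhat larger, could not be told from 0 in these mice at this depth. For scale, Chst7 at -0.28 ± 0.13 had an unadjusted edgeR p of 0.0553.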
